A study of Mus musculus with 7 samples.

Results

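The let-7 family of microRNAs was followed through its 9 guide strands in the mouse, mmu-let-7a-5p, mmu-let-7b-5p, mmu-let-7c-5p, mmu-let-7d-5p, mmu-let-7e-5p, mmu-let-7f-5p, mmu-let-7g-5p, mmu-let-7i-5p and mmu-miR-98-5p. They were selected by a rule on their names and are 9 of the 1881 miRNA names on the arrays. The study profiled miRNAs in CD4+ T cells from draining lymph nodes of mice with a myocarditis model (EAM, 4 arrays, labelled as taken on day 6) and mice with a myocardial infarction model (LAD, 3 arrays, labelled as taken on day 3). The series' own description lists the days in the opposite order, so the day of each group is uncertain. There was no untreated group, so each difference is between the 2 models. The cells were purified by positive selection with an anti-CD4 antibody and magnetic beads, and RNA of equal mass was labelled with Cy3 for one-colour Agilent miRNA arrays. Strain, sex and age of the mice are not given in the sources used here. Nothing in the labels says whether each array came from a separate animal or a pool, so p-values measure only the spread between these samples.

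A microRNA guide strand is loaded into an Argonaute protein and pairs with messenger RNAs mainly through its seed, bases 2 to 8 from its 5′ end, which lowers their stability and translation. The let-7 family is conserved across animals and is abundant in differentiated cells, where it restrains growth and cell cycle genes. LIN28 proteins bind let-7 precursors and block their maturation. In T cells, let-7 miRNAs are known to be high in the resting state, to fall after antigen receptor stimulation and to restrain differentiation into effector cells.

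The sequences are shown because all 9 guides carry the same seed and are told apart by few bases outside it, which bears on how well an array can separate them. They are RefSeq mature sequences of the mouse GRCm38.p6 assembly, printed 5′ to 3′ with the seed in capitals.
mmu-let-7a-5p: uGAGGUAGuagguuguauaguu
mmu-let-7b-5p: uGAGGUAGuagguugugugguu
mmu-let-7c-5p: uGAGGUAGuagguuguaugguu
mmu-let-7d-5p: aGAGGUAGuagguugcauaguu
mmu-let-7e-5p: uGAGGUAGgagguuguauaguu
mmu-let-7f-5p: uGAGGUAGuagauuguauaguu
mmu-let-7g-5p: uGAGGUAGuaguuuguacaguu
mmu-let-7i-5p: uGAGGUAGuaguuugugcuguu
mmu-miR-98-5p: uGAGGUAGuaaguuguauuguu

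Each guide is 22 bases long. Counted from base 1 at the 5′ end, with the base of let-7a given before the position, let-7c differed from let-7a by A19G alone, let-7e by U9G alone and let-7f by G12A alone. let-7b carried A17G and A19G, let-7d carried U1A and U16C, let-7g carried G12U and U18C, and miR-98 carried G11A and A19U. let-7i was the most distant from let-7a, with G12U, A17G, U18C and A19U. Among the 36 pairs of members, 4 differed by 1 base and 10 by 2 bases. A search of 1679 mature mouse names found 11 with the same bases 2 to 8, the 9 members plus let-7k and miR-1961. let-7j and miR-202-3p shared bases 2 to 7 only.

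Each member was read by 2 probes of 18 to 22 bases, printed on 30 spots of every array. All 18 probes reached base 22, and the first base covered ranged from base 1 to base 5. The nearest other member mismatched the probe at 1 base for 12 of the 18 probes and at 2 bases for the other 6, which were those of let-7g, let-7i and miR-98. No probe matched another member without a mismatch. The part of each member's signal that came from its relatives was not tested.

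In the RefSeq annotation of GRCm38.p6, several of the hairpins lie together. The let-7a-1, let-7f-1 and let-7d hairpins form a cluster on the minus strand of chromosome 13 (chr13:48538179-48538272, chr13:48537829-48537917 and chr13:48536012-48536114). The let-7c-2 and let-7b hairpins lie 621 bases apart within the long noncoding RNA Lncppara (chr15:85706603-85706697 and chr15:85707319-85707403, plus strand). The let-7f-2 and miR-98 hairpins lie 785 bases apart within Huwe1, which encodes a ubiquitin ligase (chrX:151912346-151912428 and chrX:151913214-151913321, plus strand). The let-7g hairpin lies within Wdr82 (chr9:106178840-106178927, plus strand) and the let-7e hairpin within Spaca6 beside miR-99b and miR-125a (chr17:17830352-17830444, plus strand). A further let-7a hairpin, let-7a-2, lies within the long noncoding RNA Mir100hg beside miR-100 (chr9:41536716-41536811, plus strand), and the array design maps both let-7a probes to chromosome 9 as well as 13. The let-7i hairpin (chr10:122985640-122985724, minus strand) had no other miRNA hairpin within 10 kb, and let-7c-1 lies beside miR-99a (chr16:77599657-77599750, plus strand). The table used does not separate exons from introns.

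The LAD arrays were dimmer than the EAM arrays. The 75th percentile of the processed signal, over 569 probes detected on every array, lay between 249 and 325 intensity units on the EAM arrays. It was 78.9, 156 and 64.0 units on LAD arrays 1, 2 and 3. The scanner software called 445 to 471 miRNAs detected per EAM array and 311 to 380 per LAD array, while the synthetic control spots gave a mean log2 signal of 12.83 ± 0.17 (SD, n = 4) and 13.05 ± 0.02 (SD, n = 3). All 7 arrays lay on 1 slide with the models in separate columns, so model, day and slide column cannot be told apart. In such bulk samples, fewer cells of a type and less RNA per cell cannot be told apart either. The number of arrays limits the precision of every value.

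Of the 1890 spots of the members, 1729 were well above background, 46 were marked as outliers and left out, and 0 were saturated. For the 7 members other than let-7e and miR-98, every spot was well above background on every array. miR-98 had 30 of 30 such spots on each EAM array and 19, 30 and 3 on LAD arrays 1 to 3. let-7e had 16, 18, 16 and 24 such spots on the EAM arrays and 0, 13 and 0 on the LAD arrays. let-7e was therefore called detected on 4 of 4 EAM arrays and on 1 of 3 LAD arrays, and its LAD level is close to background.

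The let-7 guides made up a larger part of the miRNA signal in the EAM samples. As a share of the scanner's total gene signal summed over all detected miRNAs, the 9 members took 11.2, 12.7, 10.6 and 12.0% on EAM arrays 1 to 4. They took 8.11, 8.39 and 6.60% on LAD arrays 1 to 3. Every EAM array lay above every LAD array, and the mean share was 11.6% ± 0.92 (SD, n = 4) against 7.70% ± 0.96 (SD, n = 3), a ratio of 1.51. The summed signal was 206275 to 256403 units on the EAM arrays and 17490 to 84688 units on the LAD arrays. With the same total gene signal quantile normalized instead, the 7 members other than let-7e and miR-98 differed by 0.023 (let-7f) to 0.49 (let-7g) log2 units. Only miR-98 then passed an adjusted p of 0.05 by limma. let-7g, whose hairpin stands apart from the clusters, took 3.08, 3.42, 2.78 and 3.16% on the EAM arrays and 2.15, 1.52 and 1.45% on the LAD arrays, a ratio of 1.82. miR-98 had a ratio of 1.86 at a low share, 0.053% ± 0.0043 (SD, n = 4) against 0.028% ± 0.012 (SD, n = 3). let-7a, let-7b, let-7c and let-7f had ratios of 1.42 to 1.49. These 6 members did not overlap between the groups, where 26.5% of all tested miRNAs did not overlap with EAM above LAD. let-7d and let-7i had ratios of 1.23 and 1.30 with overlapping groups, and let-7e, not detected on LAD arrays 1 and 3, was counted as 0 there. The two-sided exact permutation p was 0.0571 for each of the 6, the smallest that the 35 splits of these arrays allow (0.0857 after Benjamini-Hochberg adjustment over the 9 members), so no member could pass 0.05 in this test.

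**Figure D1:**
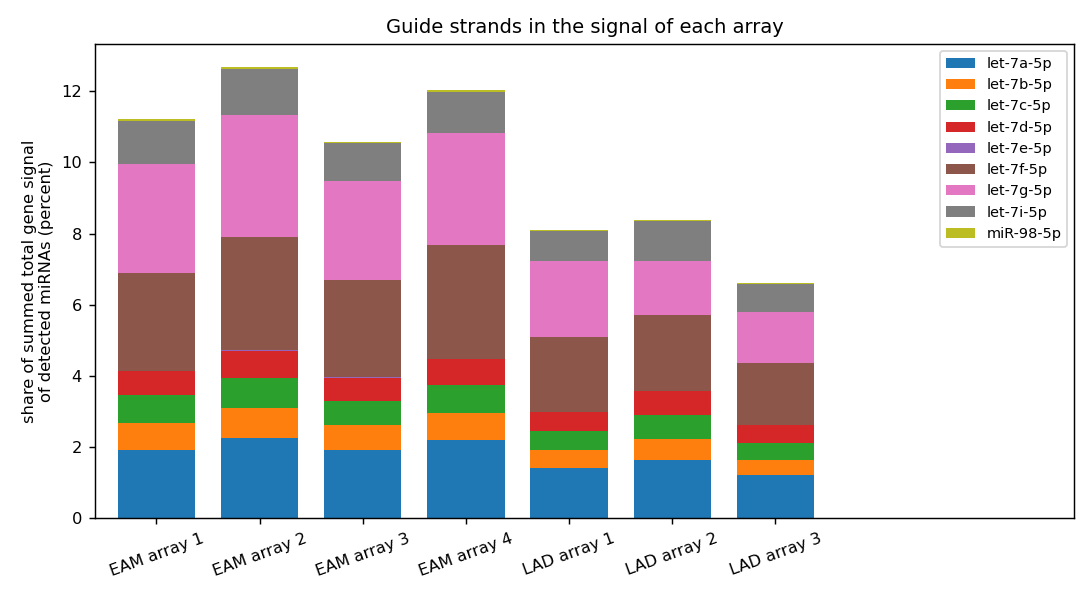
The share of each array's summed total gene signal taken by the guide strands, in percent, with 1 stacked bar per array and 1 colour per member. The 4 EAM bars reach 10.6 to 12.7% and the 3 LAD bars reach 6.60 to 8.39%. Probes differ in binding and labelling, so the height of one colour against another is not a ratio of molecules.

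On the normalized log2 scale, 4 of the 9 guides were higher in EAM and 0 were higher in LAD at an adjusted p under 0.05. The 4 were let-7b, let-7c, let-7g and miR-98. Across the 423 tested miRNAs, 36.2% were called higher in EAM and 23.6% higher in LAD (59.8% in either direction), so 4 of 9 is close to the background for that direction with this detection filter. That background depended on the filter. Among the 251 miRNAs detected on all 7 arrays, 3 of 8 members and 19.9% of all were called higher in EAM. Values were background-corrected, quantile normalized between arrays and summarised per miRNA. The test was limma's moderated test with Benjamini-Hochberg adjustment over the 423 miRNAs that the scanner software detected throughout either group or both.

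miR-98-5p had the largest difference among the members in these values. With both percentile scalings let-7g was ahead of it, and with the total gene signal let-7e was. With median centring and without scaling, every member but let-7e was ahead of miR-98. Without scaling miR-98 was 2.41, let-7d 2.50 and let-7g 3.13. The log2 signal of miR-98 was 7.11, 7.21, 7.25 and 7.42 on EAM arrays 1 to 4 and 5.78, 6.81 and 5.17 on LAD arrays 1 to 3. All EAM arrays lay above all LAD arrays, and the 3 LAD arrays spread more widely than the 4 EAM arrays, with array 2 highest and array 3 lowest. The means were 7.25 ± 0.13 (SD, n = 4) and 5.92 ± 0.82 (SD, n = 3), a difference of 1.33 ± 0.34 (SE) or 2.51-fold, adjusted p = 0.0182 by limma. This placed miR-98 at rank 13 of 423 toward EAM. let-7f-5p, which is also made from the hairpin beside miR-98 in Huwe1 and from another hairpin on chromosome 13, read 12.18, 12.25, 12.23 and 12.31 on the EAM arrays and 12.07, 12.02 and 12.02 on the LAD arrays. Its groups did not overlap, but the difference of 0.21 ± 0.10 (SE) did not pass the test (adjusted p = 0.114 by limma).

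let-7g-5p read 12.44, 12.45, 12.36 and 12.35 on the EAM arrays and 12.10, 11.72 and 11.94 on the LAD arrays. The groups did not overlap, and LAD array 2, the brightest LAD array and the highest of the 3 for 6 of the 9 members, was the lowest for let-7g. The difference was 0.48 ± 0.13 (SE), or 1.39-fold, adjusted p = 0.0192 by limma.

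The guides of the chromosome 15 pair moved by similar amounts. let-7b-5p read 10.55, 10.52, 10.56 and 10.53 on the EAM arrays and 10.25, 10.22 and 9.86 on the LAD arrays. let-7c-5p, which also comes from chromosome 16, read 10.41, 10.41, 10.38 and 10.44 on the EAM arrays and 10.09, 10.23 and 9.64 on the LAD arrays. In both, every EAM array lay above every LAD array and LAD array 3 was lowest. The difference was 0.43 ± 0.13 (SE) for let-7b (1.35-fold, adjusted p = 0.0279 by limma). It was 0.42 ± 0.16 (SE) for let-7c (1.34-fold, adjusted p = 0.0464 by limma). The sequences of let-7b and let-7c, printed above, differ by 1 base.

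let-7a-5p and let-7d-5p, whose hairpins share the chromosome 13 cluster, overlapped between the groups. let-7a read 11.81, 11.81, 11.77 and 11.85 on the EAM arrays and 11.65, 11.82 and 11.43 on the LAD arrays. let-7d read 10.26, 10.30, 10.35 and 10.38 on the EAM arrays and 10.20, 10.30 and 9.96 on the LAD arrays. In both, LAD array 2 was within the EAM range. The differences were 0.18 ± 0.13 (SE) for let-7a and 0.17 ± 0.12 (SE) for let-7d, with adjusted p = 0.242 and 0.252 by limma.

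let-7i-5p read 11.20, 11.13, 11.09 and 11.08 on the EAM arrays and 10.99, 11.18 and 10.88 on the LAD arrays. Its difference, 0.11 ± 0.12 (SE), was the smallest of the 9 (adjusted p = 0.442 by limma), and LAD array 2 lay within the EAM range. let-7e-5p read 5.07, 5.33, 5.37 and 5.51 on the EAM arrays and 4.85, 5.17 and 4.57 on the LAD arrays. Its difference of 0.46 ± 0.18 (SE) missed the threshold (adjusted p = 0.0534 by limma), and LAD array 2, the only LAD array on which it was detected, overlapped the EAM range. let-7e entered the test only through EAM, where it was detected on every array.

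**Figure D2:**
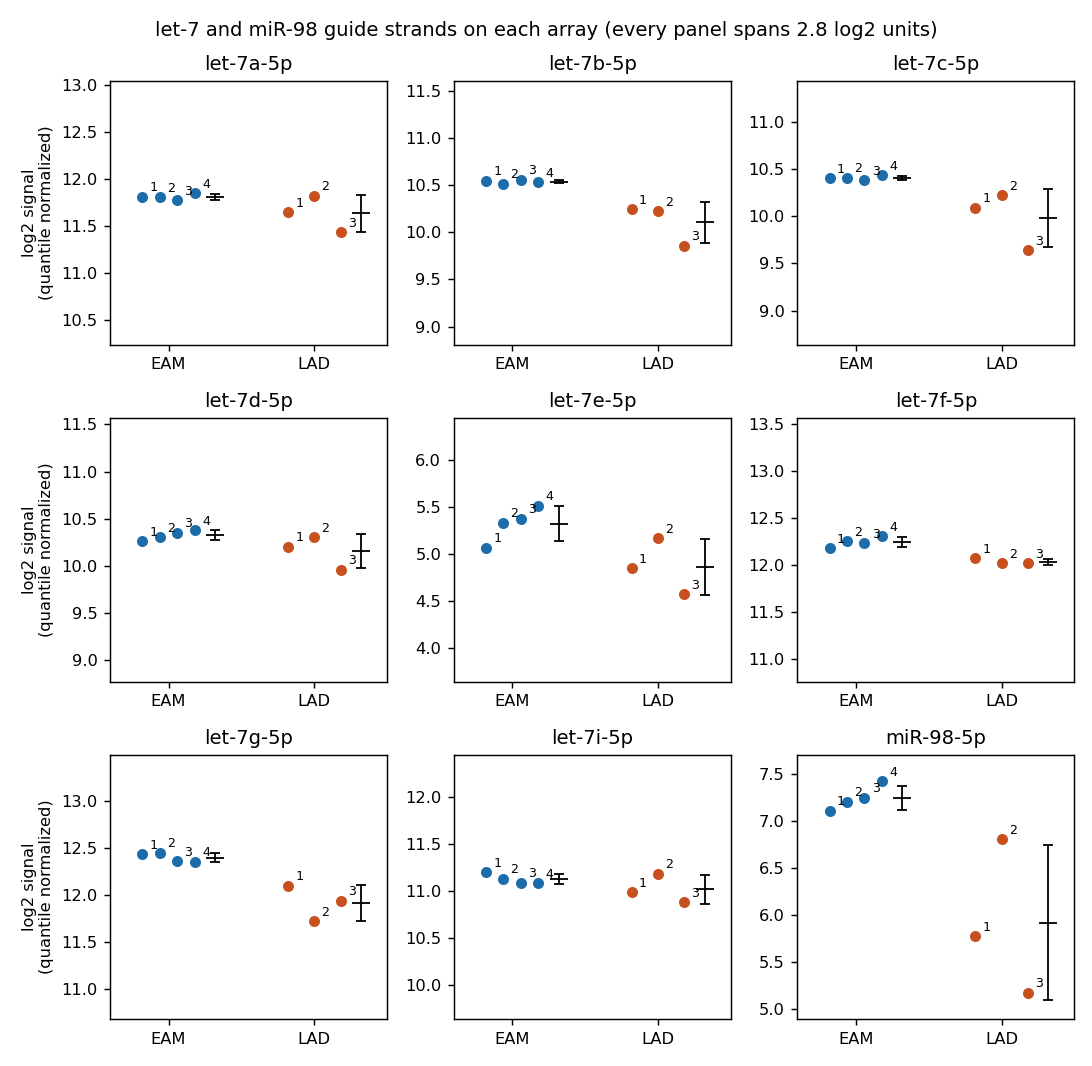
Log2 signal (quantile normalized) of each guide strand on every array, with 1 panel per member, 1 numbered point per array and a bar for the group mean ± SD; every panel spans the same number of log2 units. The LAD points are more spread than the EAM points in every panel but that of let-7f, and miR-98 shows the widest gap, 7.25 against 5.92.

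Averaged over the 9 members, the log2 signal was 10.16 ± 0.04 (SD, n = 4) on the EAM arrays against 9.74 ± 0.22 (SD, n = 3) on the LAD arrays, a difference of 0.42. The median difference over the members was also 0.42, beside a median of 0.30 over all 423 tested miRNAs. The latter median depended on the detection filter. Over the 251 miRNAs detected on all 7 arrays it was -0.095, beside 0.32 for the 8 members among them. With no detection filter it was -0.038. No median was taken over miRNAs of like signal strength. Of the members, 5 of 9 did not overlap with EAM above LAD, beside 33.8% of all tested miRNAs. All 9 differences were above 0 in this normalization, in each of 10 other sets of values and with any one array left out. let-7e, which entered the test only through EAM, adds no independent support to that count. The differences of let-7d and let-7f were 0.030 and 0.023 when the scanner's total gene signal was used.

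**Figure D3:**
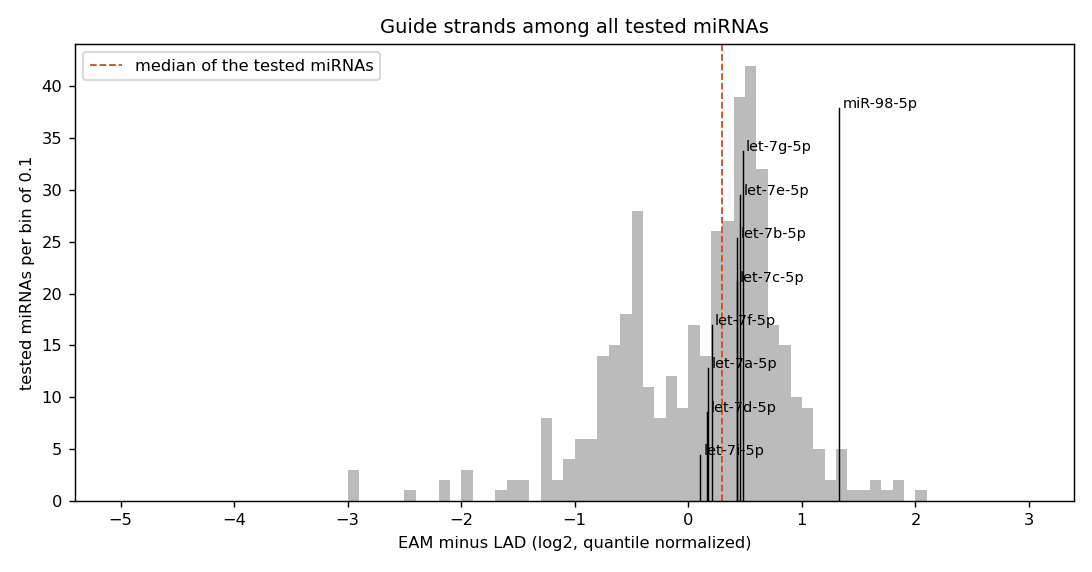
Histogram of the EAM minus LAD difference (log2, quantile normalized) of the 423 tested miRNAs in bins of 0.1, with a line at each of the 9 guide strands, whose height has no meaning, and a dashed line at the median of all tested miRNAs, 0.30. The members lie between 0.11 (let-7i) and 1.33 (miR-98).

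The calls changed when single arrays were left out. Without any 1 of the 4 EAM arrays, the call was lost for let-7b (adjusted p 0.0647 to 0.0759), let-7c (0.0883 to 0.107) and let-7g (0.0535 to 0.0569) in the limma test. Over all tested miRNAs, the share called toward EAM was 17.5, 15.4, 12.1 and 9.46% without EAM arrays 1 to 4, and 19.4 and 15.4% without LAD arrays 1 and 3. miR-98 was not called without EAM array 3 or 4 (adjusted p = 0.0506 and 0.0556 by limma) and was called without any other single array, so 0 members were called without either of these, where 3 had an unadjusted p under 0.05. Without LAD array 3, let-7b (0.0576) and let-7c (0.101) lost the call in limma and let-7a, let-7c, let-7d and let-7i shrank to differences of 0.075, 0.25, 0.069 and 0.038; without LAD array 1, let-7c (0.0744) lost it. Without LAD array 2, 8 of 9 members were called, all but let-7i (adjusted p = 0.0610 by limma), and the difference of miR-98 was 1.77, while 55.1% of all tested miRNAs were called toward EAM. When each group had its own array weight, which lets the more variable LAD arrays count for less, only miR-98 was called (adjusted p = 0.0230 by limma), beside 15.8% of all tested miRNAs. let-7c also lost the call with the background model fitted without control spots (0.0661), with testing limited to miRNAs detected on all 7 arrays (0.0566) and with no detection filter (0.0563), all by limma. In these settings 4 of 9, 3 of 8 and 4 of 9 members were called, beside 37.4, 19.9 and 13% of the miRNAs tested. Without background correction, or with local background, let-7f was called as well as the 4 (32.6 and 30% of all tested).

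The size of the difference depended on the scaling between arrays. Without any scaling, all 9 members were called toward EAM, with differences from 1.12 (let-7e) to 3.13 (let-7g) and adjusted p of 0.00272 to 0.00697 by limma, but so were 70.7% of all tested miRNAs and the median of all was 1.17. Setting each array to its 75th percentile over all probes also called 9 of 9 (50.1% of all tested toward EAM), and centring on the median called 8 of 9 (39% of all tested). With each array set to its 75th percentile over probes detected on all arrays, 8 of 9 members were called, all but let-7e, and their mean difference was 1.11. The median over all tested miRNAs stayed at 0.30 and 26.2% were called toward EAM in that setting. Members were not compared with tested miRNAs of like signal strength, so these medians do not show an excess of the family. Without scaling, the dimmest member, let-7e, differed by 1.12, and the 7 members with every spot well above background by 2.50 to 3.13. In the authors' deposited log2 table, which is already normalized, 8 of 9 were called, all but let-7e, against 35.2% of all tested miRNAs. The deposited table gave let-7b 11.05, 11.03, 11.07 and 11.05 in EAM and 10.09, 10.64 and 9.56 in LAD, a difference of 0.95 in place of 0.43. Keeping the control spots in during quantile normalization gave 7 of 9 calls (38.8% of all tested). In values rebuilt without background correction, keeping the control spots in gave a mean absolute gap of 0.0245 log2 units to the EAM minus LAD differences of the deposited table, against 0.0758 with them left out. The share of single values within 0.1 of the deposited table ran the other way, 95.7% against 96.5%. With the scanner's total gene signal, quantile normalized, 1 member, miR-98, was called, against 23.4% of all tested miRNAs.

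**Figure D4:**
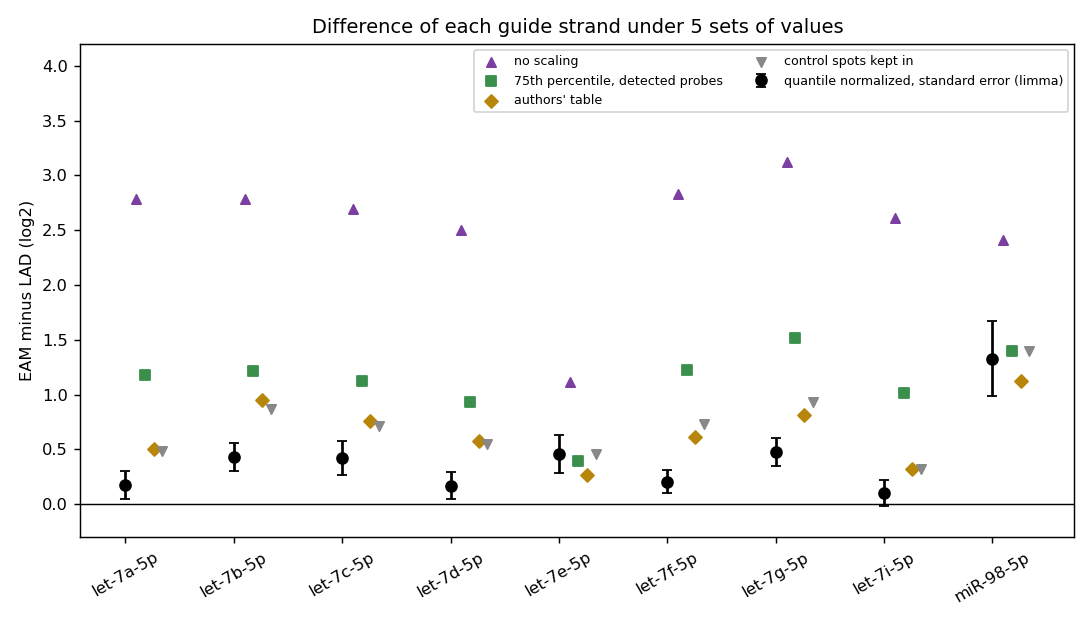
The EAM minus LAD difference (log2) of each guide strand under 5 sets of values, with limma's standard error on the quantile normalized values. All points lie above 0. The largest values are those without scaling between arrays, 1.12 to 3.13, and the quantile normalized values are 0.11 to 1.33.

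Differences between members on the same array do not move when an array is scaled by a constant. Quantile normalization is not such a scaling, so the values that follow can still depend on it. Set against the mean of the other 8 members, miR-98 was 1.02 higher in EAM, and let-7a, let-7d and let-7i were lower by 0.27, 0.28 and 0.35 log2 units, each without overlap between the groups. The two-sided exact permutation p was 0.0571 for each, the smallest these arrays allow (0.129 after adjustment over the 9 members). The other 5 members overlapped. Of the 414 other tested miRNAs set against the mean of the 9 members, 46.1% did not overlap. Several of these signs turned on values without scaling between arrays, where the relative difference was -0.14 for miR-98, 0.28 for let-7a, 0.33 for let-7f, 0.080 for let-7i and -1.60 for let-7e. Since let-7e and miR-98 had spots near background on LAD arrays, the 7 members with every spot well above background were also compared among themselves.

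Among these 7, let-7g had the most positive EAM minus LAD difference against its relatives in the quantile normalized values, and let-7i the most negative. The order depended on the values used: let-7b was ahead of let-7g in the authors' table (0.35 against 0.19), and let-7d was below let-7i with both percentiles (-0.28 against -0.18), with median centring and without scaling (-0.30 against -0.18). let-7g minus the mean of the other 6 was 1.37, 1.38, 1.29 and 1.26 on the EAM arrays and 1.22, 0.76 and 1.31 on the LAD arrays. LAD array 2 was low and LAD array 3 lay within the EAM range. The difference was 0.23 (two-sided exact permutation p = 0.171), it kept its sign in 11 of 11 sets of values (0.19 to 0.42), and it was 0.058 without LAD array 2. let-7b was 0.17 higher in EAM without overlap and kept its sign in 11 of 11 sets (0.024 to 0.35). let-7d was lower in EAM by 0.14 log2 units without overlap and kept its sign in 11 of 11 sets, from -0.30 to -0.087. let-7i was lower by 0.21 log2 units without overlap and kept its sign in 10 of 11 sets, the exception being the total gene signal. Its groups nearly touched, with -0.072 on LAD array 1 and -0.077 on EAM array 1. let-7a was lower by 0.13 without overlap, with the same sign in 7 of 11 sets, and the difference was -0.071 without LAD array 2. let-7c (0.16, same sign in 7 of 11) and let-7f (-0.092, same sign in 6 of 11) overlapped, and were 0.056 and -0.0075 without LAD array 3. For the 4 without overlap the exact permutation p was 0.0571 (0.1 after adjustment over the 7 members). Against the mean of the 9 members, 46.1% of the other tested miRNAs did not overlap, and the share against these 7 was not counted.

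**Figure D5:**
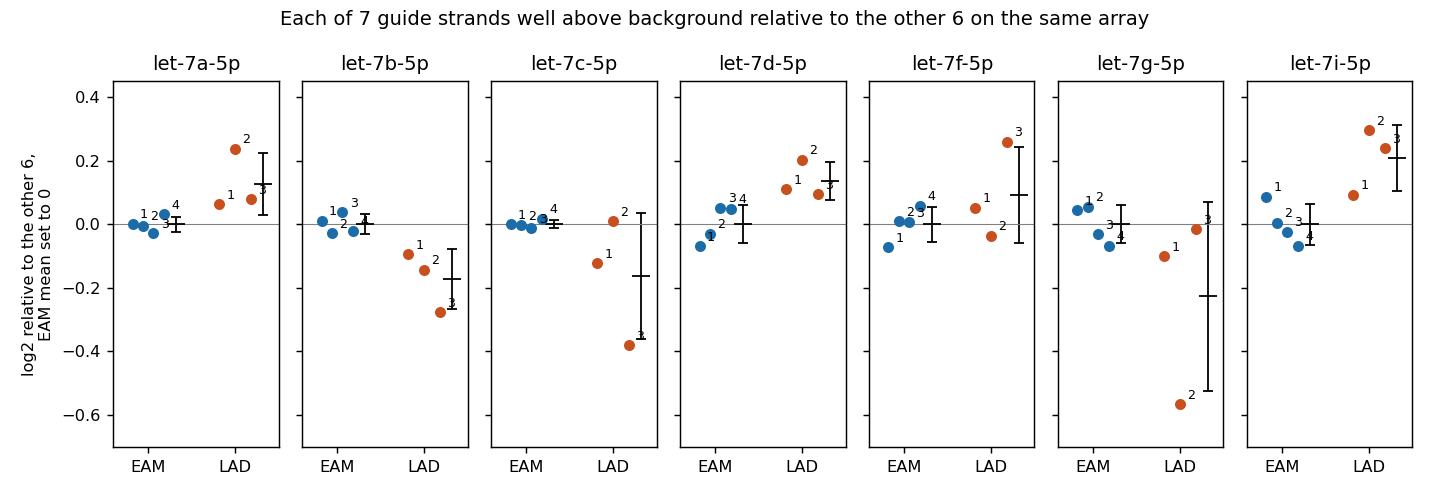
For the 7 members with every spot well above background, the log2 value of each member minus the mean of the other 6 on the same array, centred on the EAM mean of that member, with 1 numbered point per array and a bar for the group mean ± SD. let-7g shows one low LAD point, array 2, and let-7a, let-7d and let-7i show all LAD points above the EAM points.

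The 2 probes of a member gave like differences for most members. They read 1.33 and 1.33 for miR-98, 0.45 and 0.41 for let-7b, 0.56 and 0.39 for let-7g and 0.32 and 0.53 for let-7c. let-7i was the exception in direction. One of its probes gave 0.23 without overlap and the other gave -0.019 with overlap. Both probes of let-7f had no overlap, at 0.13 and 0.28.

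The members' profiles over the 7 arrays were compared after each was centred on its own mean. The closest pair was let-7a and let-7d, with a root mean square difference of 0.041 log2 units, followed by let-7a with let-7i (0.063) and let-7b with let-7c (0.065). let-7a and let-7d share the chromosome 13 cluster. The let-7d probes start at base 4 or 5 and mismatch let-7a at 1 base. let-7b and let-7c differ by 1 base and share the chromosome 15 locus. let-7a and let-7i, however, differ by 4 bases and share no cluster. let-7a and let-7f, which differ by 1 base and share the chromosome 13 cluster, were 0.11 apart. let-7f and miR-98, with neighbouring hairpins in Huwe1, were 0.71 apart. The miR-98 profile was the farthest from the family mean, at 0.56, and 322 of the 414 other tested miRNAs lay closer to it. Outside the family, the tested miRNAs closest to the family mean were miR-652-3p (0.072), miR-3473f (0.081), miR-7043-5p (0.083), miR-671-5p (0.083) and miR-3058-5p (0.084). All of these profiles share the same 7 arrays and their brightness. The part of shared transcripts, or of probes reading related members, in the closeness of members was not tested.

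Fewer values were measured for the other strands of the let-7 hairpins. The passenger strand is the opposite arm of the hairpin, usually degraded once the guide is loaded. Of 11 passenger names, 6 were detected on any array and 4 were tested, of which 0 were higher in EAM and 2 were higher in LAD. Across all tested miRNAs, 36.2% were called higher in EAM and 23.6% higher in LAD. let-7b-3p read 5.12, 5.30, 5.25 and 5.25 on the EAM arrays and 6.39, 5.67 and 6.39 on the LAD arrays, so the LAD arrays were all higher. It was 1.89-fold higher in LAD (adjusted p = 0.0118 by limma), and let-7f-1-3p was 1.74-fold higher in LAD (adjusted p = 0.0117 by limma). Without scaling between arrays these 2 passenger differences were 0.049 and 0.087 toward EAM, with adjusted p of 0.786 and 0.638 by limma. In each of the other 10 sets of values both were called higher in LAD, with differences from -1.83 to -0.50 for let-7b-3p and from -1.82 to -0.38 for let-7f-1-3p. The other 2 tested, let-7d-3p and let-7a-1-3p, had differences of -0.35 and -0.21 and were not called (adjusted p = 0.0501 and 0.128 by limma). Across the 11 sets of values let-7d-3p was called higher in LAD in 5 and let-7a-1-3p in 3, both percentile scalings and median centring among them, and neither was called higher in EAM. let-7f-2-3p and miR-98-3p were each detected on 1 EAM array and were not tested.

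Relatives and neighbours gave few measurements. Of the 4 other names that share most or all of the seed, miR-202-3p was tested and overlapped between the groups (difference 0.37, adjusted p = 0.261 by limma), and let-7j was detected on 1 array. let-7k and miR-1961 were detected on none. Of the 5 partner miRNAs that share transcripts with let-7 hairpins, 3 were detected on any array and 2 were tested. Neither miR-125a-5p (-0.17) nor miR-125b-5p (0.045) was called (adjusted p = 0.241 and 0.724 by limma), and miR-99a-5p was detected on 3 EAM arrays and 0 LAD arrays.

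Marker lists were read beside the labelled cell type. All 7 markers listed for lymphocytes and T cells were detected on all arrays. Of these, 4 were higher in EAM (miR-142a-3p, miR-150-5p, miR-155-5p and miR-146a-5p), 1 was higher in LAD (miR-181a-5p) and 2 were not called (miR-142a-5p and miR-342-3p). Whether these 7 are particular to lymphocytes was not tested. The myeloid marker miR-223-3p was 2.87-fold higher in LAD (adjusted p = 0.0117 by limma), 6.45 ± 0.15 (SD, n = 4) against 7.97 ± 0.75 (SD, n = 3), while miR-223-5p was detected on no array. Of 5 epithelium markers, 4 were detected, of which miR-200a-3p, miR-200b-3p and miR-141-3p were higher in EAM and miR-200c-3p was not called. Each was detected on all 4 EAM arrays. On the LAD arrays miR-200a-3p was detected on 0, and miR-200b-3p, miR-200c-3p and miR-141-3p on 1 each. These markers therefore entered the test only through EAM. Across all tested miRNAs, 36.2% were called higher in EAM and 23.6% higher in LAD. The red cell marker miR-451a did not pass the test (difference -0.13, adjusted p = 0.741 by limma) and miR-144-3p was detected on no array. The endothelium marker miR-126a-3p was detected on 3 EAM and 2 LAD arrays, and the stroma, muscle and liver markers were detected on none. The scanner's summed total gene signal was 58.2 to 67.3 units in EAM and 24.7 to 75.1 in LAD for the myeloid markers, and 39.7 to 65.3 in EAM and 0 to 10.3 in LAD for the epithelium markers. The part of other cell types in the let-7 differences was not tested.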

How the data were processed

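The 7 scanner files hold 58594 spots each and spot intensities on a linear scale, deposited by the authors without scaling between arrays; per the file headers they were made with Agilent Feature Extraction 10.7.3.1. The authors' deposited values of the same arrays are on a log2 scale, normalized between arrays; per the submitters' processing notes RMA was used, with settings not given in the sources used here.

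The mean spot intensity was corrected with normexp (fitted on all spots, no offset), the 2164 control spots were left out, and values were quantile normalized. Spots marked as outliers were dropped, the median was taken per probe, and median polish was applied over the 2 probes of a member. limma 3.58.1 in R 4.3.3 fitted EAM minus LAD on all 7 arrays, with Benjamini-Hochberg adjustment over 423 miRNAs that the scanner software detected throughout either group or both. The code was tested on simulated data. No pair of arrays stood for the same sample.

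All 9 members are named. Passenger strands, same-seed names, partners and cell type markers are described by counts, naming those detected; the 5 closest profiles outside the family are named. Members and lists were chosen with earlier results of these data known. Alternatives changed the background correction, scaling, detection filter, probe, array weights and arrays used. Same-numbered EAM and LAD arrays did not deviate together (correlations 0.19, -0.16 and -0.19 for numbers 1 to 3), so the numbers were not used as pairs.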

Additional observations from a re-analysis of the deposited data

How the results depend on the processing

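The 9 members' differences kept their positive direction under the alternatives in values, filter, model and arrays. There were 21 for each member and 20 for let-7e, which entered the test only through EAM. Of the single probes, one of let-7i alone gave -0.019. Over these alternatives and members, 125 kept their side of the threshold, 33 passed it where the reported value had not and 30 no longer passed it. The count of 4 called members became 9 without scaling and with the percentile over all probes, 8 with the percentile of detected probes, with median centring and with the authors' table, 7 with control spots kept in (chosen after seeing the data), 1 with the total gene signal and 1 with a weight per group. Leaving out 1 array gave 0 to 8. With replicate number as a block 0 members and 0 of 423 miRNAs were called (members' adjusted p 0.0868 to 0.625 by limma; 1 member and 181 miRNAs had an unadjusted p under 0.05), and the numbers share only a label. The mean difference of 0.42 became 1.77, 1.11, 1.67, 2.54, 0.89, 0.66 and 0.72 with all-probe percentile, detected-probe percentile, median centring, no scaling, total gene signal, authors' table and control spots kept in; leaving out 1 array gave 0.30 to 0.52. With the total gene signal, let-7e alone was 4.48, being listed at 0.1 units on LAD arrays 1 and 3, and the other 8 members averaged 0.44 (chosen after seeing the data). The cause of the other shifts was not tested.

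Against the other 8 members, signs turned as follows. With either percentile, let-7a was 0.079, let-7e -0.80 and let-7f 0.13. With median centring and without scaling, let-7a was 0.28, let-7e -1.60, let-7f 0.33, let-7i 0.080 and miR-98 -0.14. With the total gene signal, let-7b was -0.60, let-7c -0.60 and let-7g -0.46, with that floor value of let-7e in the mean. Against the other 6 well above background, a mean without let-7e and miR-98, they were 0.14, 0.13 and 0.28. The part of let-7e alone in these turns was not tested. let-7e was -0.11 without background correction, -0.15 with local background, -0.44 in the authors' table and -0.29 with control spots kept in, where let-7f was 0.015. Against the other 6 of the 7 members well above background, let-7a was 0.011, let-7c -0.054 and let-7f 0.061 with either percentile, and 0.028, -0.082 and 0.082 with median centring and without scaling; let-7f was 0.086 with control spots kept in and let-7i 0.17 with the total gene signal. Dimmer LAD arrays limit let-7e and miR-98, which are near background there.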
